A study of Oryza sativa with 2 samples.

Results

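SCL6 is the name that the deposited annotation gives to a small set of GRAS transcription factor genes of rice, and the copies described here are those listed as targets of the microRNA miR171. Members were the listed pairs whose gene symbol is SCL6 and whose small RNA name contains miR171, which gave 48 of 25653 pairs, on 6 transcripts of 4 gene copies out of 9660 genes in the table. The copies are ZS04g0662300, ZS06g0014000, ZS02g0545600 and ZS02g0545800. Of the 48 pairs 40 had reads, on 11 cut positions when transcript versions of a copy are counted once. Another gene with the symbol SCL6, ZS03g0012600, has no miR171 pair and is not a member.

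The samples are mesocotyls, the stem-like organ below the shoot of a grass seedling, of the indica rice cultivar P25. The L_1h library (light) came from seedlings that received 1 h of light after 5 days of darkness, and the D_5d library (dark) from seedlings kept in darkness for 5 days. Each condition has 1 library, so no difference between them has a replicate check and no test between conditions was made. Degradome sequencing reads the 5′ ends of uncapped RNA fragments, so slicing by a small RNA shows as reads that begin at a single base of the transcript. The library totals taken from the table were 34051452 reads in the light library and 15422946 in the dark library. Levels are given as TPB, the authors' read number per library total, in which 1 unshared read is worth 29.4 TPB in the light library and 64.8 in the dark library.

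GRAS proteins are plant transcription regulators that include the DELLA repressors of gibberellin signalling, the root patterning factors SCARECROW and SHORT-ROOT, and the SCL6 or HAIRY MERISTEM group. In Arabidopsis the SCL6 group keeps shoot meristem cells undifferentiated and acts in chlorophyll synthesis in light-grown seedlings, and miR171 limits it by slicing its messenger RNA. The slicer is an ARGONAUTE protein that cuts the target in the stretch paired to the middle of the small RNA, and the 3′ fragment that is left starts opposite base 10 of the small RNA. The deposited descriptions of the 4 copies disagree with each other. ZS04g0662300 is described as a GRAS-family protein, ZS06g0014000 as a hypothetical protein, the first version of ZS02g0545600 as a GRAS family transcription factor and ZS02g0545800 as a DELLA protein GAI-like.

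The table lists 2 groups of miR171 sequences that pair with the SCL6 site, and they are printed because the cut positions follow from where each starts. In its 21-base members the first group begins with the letters of miR171b and carries the seed GATTGAG. The seed is bases 2 to 8 and is written in capitals, with T for U as in the deposited table.
osa-miR171b: tGATTGAGccgtgccaatatc
mtr-miR171c: tGATTGAGccgtgccaatatt
gma-miR171e_L+1: aTGATTGAgccgtgccaatatc
The second group starts 3 bases further along the same stretch, with the seed TGAGCCG in its 21-base members.
osa-MIR171i-p3: tTGAGCCGcgtcaatatctct
gma-miR171m: tTGAGCCGcgtcaatatctca
zma-miR171b-3p_R+1: tTGAGCCGtgccaatatcaca
gma-miR171c-3p_L+1: cTTGAGCCgtgccaatatcaca
The prefix of a name gives the species in which the entry is listed (osa for rice). Another rice entry, osa-miR171a_1ss12CT, has the same letters as osa-miR171b, so the table holds 8 names and 7 sequences for SCL6. Both 22-base sequences carry 1 more base at the 5′ end, which moves their seed and their cut by 1 base.

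Each of the 4 copies had reads at the same pair of positions, 3 bases apart, which are called cuts here. The downstream cut lay opposite base 10 of miR171b and its relatives, and the upstream cut opposite base 10 of osa-MIR171i-p3 and its relatives. On its own transcript the downstream cut was at position 1581 in ZS04g0662300, 728 in ZS06g0014000, 1422 in ZS02g0545600 and 1541 in ZS02g0545800. The upstream cut was at 1578, 725, 1419 and 1538 in the same order. All 40 pairs with reads had the fragment start opposite base 10. That is where a cut is placed for each listed small RNA, so the count is no observation about slicing. The table gives reads only where a listed small RNA places a cut, so the 3-base spacing is set by the sequences listed, reads elsewhere on these transcripts were not analysed here, and which of several variants made a cut is not recorded.

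The downstream cut, in the miR171b register, had more reads than the upstream cut in 4 of 4 copies in the light library and in 4 of 4 in the dark library. ZS04g0662300 had 284 reads at the downstream and 80 at the upstream cut in the light library, against 65 and 30 in the dark library. ZS06g0014000 had 90 and 52 reads in the light library, against 77 and 48 in the dark library. Both copies thus gave an upstream cut of 30 reads or more in either library. ZS02g0545600 had 26 and 17 reads in the light library, against 3 and 0 in the dark library. ZS02g0545800 had 6 and 3 reads in the light library, against 6 and 5 in the dark library. The last pair of copies rests on few reads, and for ZS02g0545800 the lead of the downstream cut in the dark library is a single read.

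Over the 4 copies together the downstream cut held 406 of 563 reads in the light library (72.1%, exact Clopper-Pearson 95% interval 68.2 to 75.8) and 151 of 234 in the dark library (64.5%, 58.0 to 70.7). The upstream cut held 27.0% in the light library (23.4 to 30.9) and 35.5% in the dark library (29.3 to 42.0). These intervals overlap between the libraries. Here and below, overlap of separate intervals does not show that shares are equal, and the downstream and upstream shares were not compared directly between the libraries. All intervals here cover counting error alone and treat reads as independent. Amplified reads that carry no molecular identifier can be copies of each other, so the intervals can be too narrow even for counting error. By copy, the downstream share of ZS04g0662300 was 77.4% in the light library (72.8 to 81.6) and 68.4% in the dark library (58.1 to 77.6). In ZS06g0014000 it was 62.5% (54.1 to 70.4) in the light library and 61.6% (52.5 to 70.2) in the dark library. Within the light library the interval of ZS04g0662300 lay above that of ZS06g0014000, and within the dark library the intervals overlapped. The remaining copies had wide intervals, 44.4 to 75.0 for ZS02g0545600 and 29.9 to 92.5 for ZS02g0545800 in the light library.

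**Figure D1:**
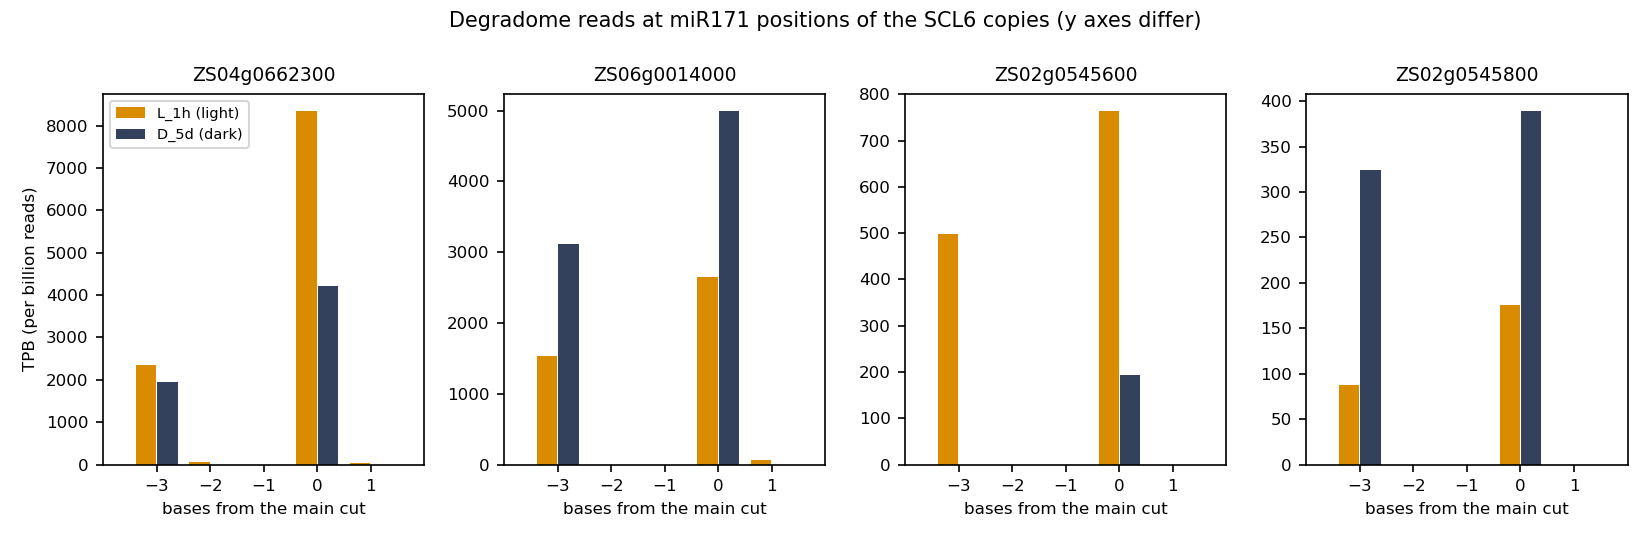
TPB at each listed miR171 position of the 4 SCL6 copies, as distance in bases from the most read (downstream) cut, with light bars left of dark bars, transcript versions summed and a separate y axis for each copy. Within each library every copy has its tallest bar at the downstream cut, and its next at 3 bases upstream where that cut has reads. At these cuts the light bar is the taller in ZS04g0662300 and ZS02g0545600 and the shorter in the others.

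**Figure D2:**
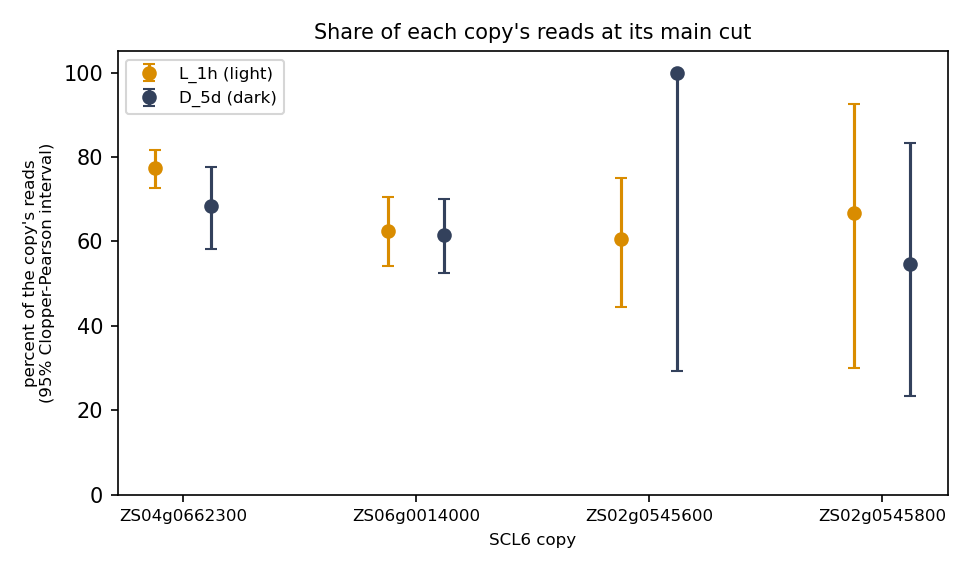
Percent of each copy's reads that started at its downstream cut, in the light and the dark library, with exact Clopper-Pearson 95% intervals. In the light library ZS04g0662300 stood at 77.4% and ZS06g0014000 at 62.5%, and the dark point of ZS02g0545600 rests on 3 reads.

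The listed positions 1 base downstream of these cuts were nearly empty. No listed miR171 small RNA places a cut at the other neighbouring bases, so reads there are not known. The 22-base variants with an extra 5′ base place a cut 1 base further downstream of either register. At these positions the light library had 1 read in ZS04g0662300 (position 1582) and 2 in ZS06g0014000 (position 729) for gma-miR171e_L+1, and 2 in ZS04g0662300 (position 1579) for gma-miR171c-3p_L+1. In the dark library none of the 234 reads lay there, which allows a share of up to 1.56% (upper end of the exact Clopper-Pearson 95% interval). These 5 reads made up 0.888% of the SCL6 reads of the light library (0.289 to 2.06). The 8 pairs without reads all belonged to these 22-base variants.

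Pairing was good and nearly the same in the 4 copies. The alignment score is a penalty for mispaired bases that runs from 0 to 4 in the table, so a low score means close pairing. osa-miR171b scored 1 and mtr-miR171c 1.5 with every copy. In the upstream register osa-MIR171i-p3 scored 1 with ZS04g0662300 and ZS02g0545600, 1.5 with ZS06g0014000 and 2 with ZS02g0545800, while gma-miR171m scored 2 and zma-miR171b-3p_R+1 scored 3 with every copy. ZS04g0662300 and ZS02g0545600 had the same scores for each of the 8 names, yet 367 and 43 reads in the light library and 95 and 3 in the dark library, so scores and read numbers did not run together among these copies.

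The downstream cut was the single highest position of its transcript, category 0 by common usage, for ZS04g0662300 and ZS06g0014000 in both libraries. For ZS02g0545800 it was category 0 in the dark library and category 2, below the highest position, in the light library. For ZS02g0545600 at position 1422 the same 26 light reads were category 0 on the second transcript version and category 2 on the first. The upstream cut was in category 2 wherever it had reads. In the authors' deposited table the p-value per pair at the downstream cut was 0.0211 to 0.0229 where the light library had category 0, and 0.0184 to 0.0199 where the dark library did. At category 2 the authors' deposited table gives p-values from 0.358 to 0.957 over all SCL6 pairs of the light library and from 0.219 to 0.827 over those of the dark library. The authors' p-value therefore separated the cuts by category rather than by read number, since the upstream cut of ZS04g0662300 with 80 light reads was among the high values.

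The copies differed widely in level. ZS04g0662300 stood at 10778 TPB in the light library and 6160 in the dark library, which placed it 9th of 665 genes with reads in the light library and 12th of 413 in the dark library. ZS06g0014000 stood at 4229 TPB in the light library and 8105 in the dark library, placed 17th in the light library and 9th in the dark library. ZS02g0545600 stood at 1263 TPB in the light library and 194.5 in the dark library, the level of 3 reads. ZS02g0545800 stood at 264 TPB in the light library and 713 in the dark library, placed 115th in the light library and 55th in the dark library. The 4 copies together held 3.38% of the TPB at all listed sites in the light library and 4.27% in the dark library.

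The make-up of the SCL6 reads differed between the libraries. In the light library ZS04g0662300 held 65.2% of all SCL6 reads (367 of 563, exact Clopper-Pearson 95% interval 61.1 to 69.1) and ZS06g0014000 held 25.6% (22.0 to 29.4). In the dark library ZS04g0662300 held 40.6% (95 of 234, 34.2 to 47.2) and ZS06g0014000 held 53.4% (46.8 to 59.9). Neither copy's interval overlapped between the libraries, while within the dark library the intervals of these copies overlapped. The same held for ZS02g0545600, with 7.64% in the light library (5.58 to 10.2) and 1.28% in the dark library (0.265 to 3.70). For ZS02g0545800 the intervals overlapped, at 1.60% in the light library (0.734 to 3.01) and 4.70% in the dark library (2.37 to 8.26).

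These shares do not depend on how the libraries are scaled to each other. ZS04g0662300 had 2.55 reads for each read of ZS06g0014000 in the light library (2.10 to 3.11), against 0.76 in the dark library (0.576 to 1.00036), an interval that just includes 1. At the downstream cut alone it had 3.16 (2.48 to 4.05) in the light library and 0.844 (0.597 to 1.19) in the dark library, and at the upstream cut alone 1.54 (1.07 to 2.23) and 0.625 (0.382 to 1.01) in the light and the dark library. ZS04g0662300 thus led in the light library, and in the dark library neither copy led beyond counting error. The ratio between the copies was thus 3.35 times as large in the light library, with an exact conditional 95% interval of 2.38 to 4.72 that covers counting error and compares these libraries, not the conditions. At the downstream cut alone the change was 3.74-fold (2.44 to 5.73), and at the upstream cut alone 2.46-fold (1.33 to 4.56). Reads at the 2 cuts start at different bases, and both showed ZS04g0662300 gaining on ZS06g0014000. Both cuts lie on the same transcripts in the same libraries, so they are not replicates of this difference. Degradome reads rise with the amount of transcript as well as with the slicing of it, and transcript levels were not analysed here, so the amount and the slicing cannot be told apart. Fewer cells of a type and less RNA per cell cannot be told apart either in whole mesocotyls.

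**Figure D3:**
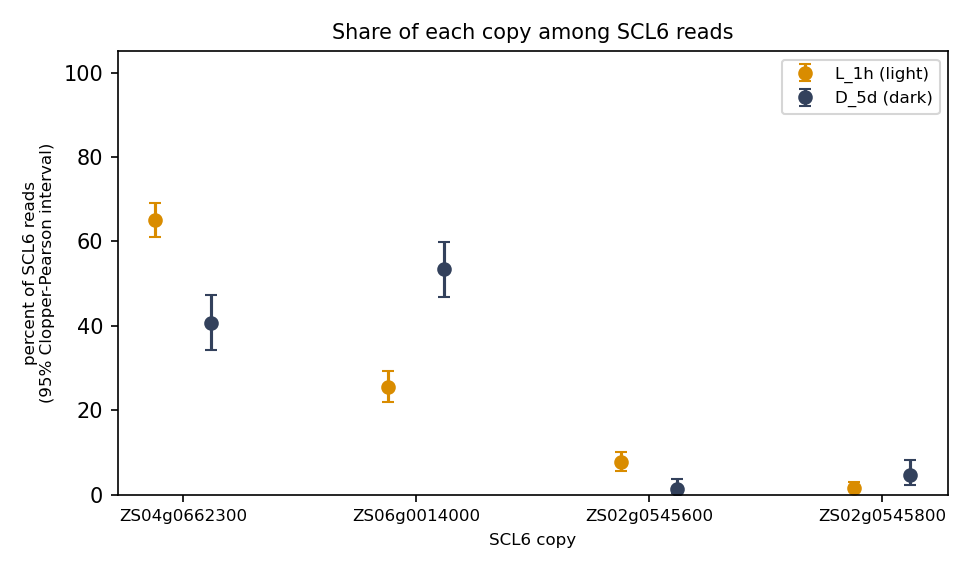
Percent of all SCL6 reads held by each copy in the light and the dark library, with exact Clopper-Pearson 95% intervals. ZS04g0662300 stood at 65.2% in the light library and 40.6% in the dark library and ZS06g0014000 at 25.6% and 53.4%. Neither copy's interval overlaps between the libraries, and the intervals of these copies overlap within the dark library.

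On the authors' scale the light over dark ratios lay on both sides of 1. A gene was called when its ratio was at least 2-fold in either direction and the 95% counting interval excluded 1. Of the 4 copies 1 was called higher and 1 lower, where 3.28% of all 823 genes with reads were called higher and 2.31% lower. The lower call, ZS02g0545800, was lost when the libraries were scaled by the median ratio over shared sites and when the downstream cut alone was used, and with the scaling to summed TPB 2 copies were called lower. Since genes with few reads can rarely be called, the background was also taken over the 85 genes with at least 20 reads, a minimum chosen after the values were seen and met by the 4 copies. Of those, 20% were called higher and 5.88% lower. On the authors' scale the intervals excluded 1 in 4 of 4 copies, against 40% of these 85 genes and 7.05% of all genes with reads. The interval of ZS02g0545800 included 1 with the median scaling (0.154 to 1.11) and with the downstream cut alone (0.121 to 1.69). With 4 copies these counts single out nothing about SCL6.

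The copies went in opposite directions. ZS02g0545600 was 6.49 times as abundant in the light library (2.08 to 32.7), from 43 light and 3 dark reads. ZS04g0662300 stood at 1.75 (1.39 to 2.22), above 1 but under 2-fold. ZS06g0014000 stood at 0.522 (0.408 to 0.668), just short of the 2-fold limit, and ZS02g0545800 at 0.371 (0.136 to 0.984) from 9 light and 11 dark reads. The 4 copies summed to 16534 TPB in the light library and 15172 in the dark library, a ratio of 1.09 (0.934 to 1.27). That sum depends on the scaling. It was 0.804 with the libraries scaled to the summed TPB of the 692 sites they share, and 1.23 with the median ratio of those sites. Both settings were chosen for this sum with its value known.

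Position by position, both cuts of a copy lay on the same side of 1. In ZS04g0662300 the downstream cut stood at 8340 TPB in the light library and 4214 in the dark library, a ratio of 1.98 (1.51 to 2.63). Its upstream cut stood at 2349 and 1945 TPB in the light and the dark library, a ratio of 1.21 (0.785 to 1.90) whose interval includes 1. With the scaling to summed TPB the upstream cut of ZS04g0662300 turned to the other side of 1, at 0.891. In ZS06g0014000 the downstream cut was at 0.529 (0.386 to 0.727) and the upstream cut at 0.491 (0.325 to 0.742). That upstream position was the 1 of 11 called lower, where 2.37% of all 2064 sites, with transcript versions counted separately, were called lower.

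Of the 11 positions 2 were called higher, both in ZS02g0545600, where 2.52% of all sites were called higher. Its downstream cut was at 3.93 (1.20 to 20.3) from 26 light and 3 dark reads. Its upstream cut, with 17 reads in the light library and 0 in the dark library, was 2.57-fold higher against a floor of 3 reads in the dark library. That fold leaves out the counting error of the 17 reads, and the counting interval of the ratio began at 1.87. In ZS02g0545800 the downstream cut was at 0.453 (0.121 to 1.69) and the upstream cut at 0.272 (0.0422 to 1.40), so a difference could not be detected at this depth.

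**Figure D4:**
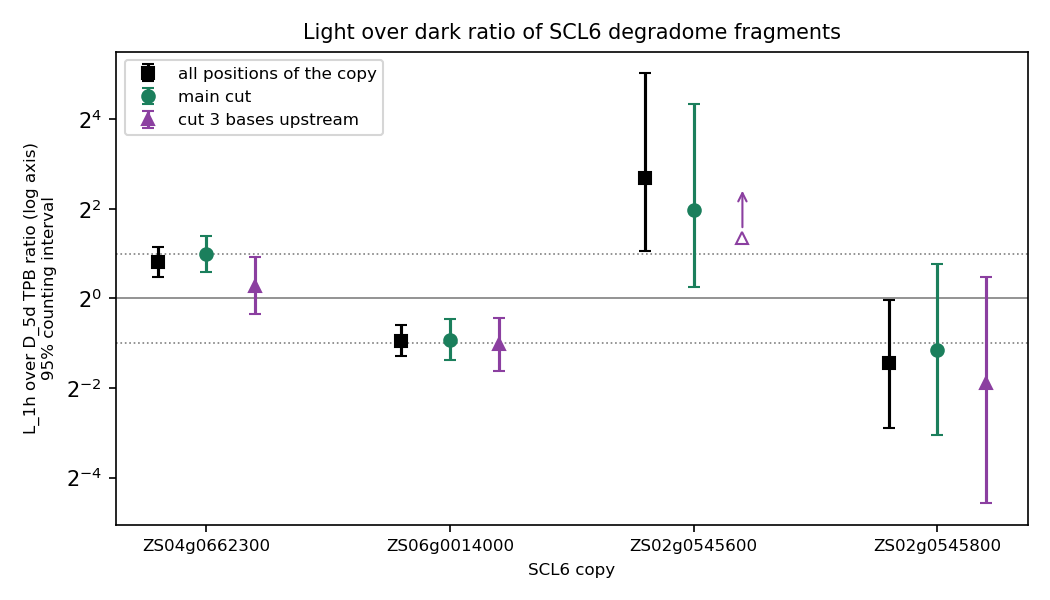
Light over dark TPB ratio of each SCL6 copy, for all its positions, its downstream (main) cut and its upstream cut, on a log axis with 95% counting intervals. Dotted lines mark 2-fold, the open triangle with an arrow is the fold of 2.57 against a floor of 3 reads for the position with no dark read, and ZS04g0662300 and ZS02g0545600 lie above 1 while the other copies lie below.

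miR171 small RNAs were also listed with other genes. In all, 192 pairs joined 21 miR171 names to 68 genes. Of the 64 genes other than SCL6, 4 (6.25%) had any read, near the 8.52% of all 9660 genes of the table, so the count shows nothing particular to miR171. The gene with the symbol TIC32 had 3 reads in the light library and 4 in the dark library at position 721, paired with osa-MIR171a-p5 at a score of 3. Its deposited description is protochlorophyllide oxidoreductase, the name of a light-dependent enzyme of chlorophyll synthesis. Whether symbol and description name the same protein was not checked. UBC32, a ubiquitin-conjugating enzyme gene by its symbol, had 2 light reads, At3g51120 had 2 and FTIP1 had 1. None had a dark read at these pairs. Scores of these pairs were 3.5 or 4.

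Among genes with a miR171 score of 2 or less, 4 of 4 SCL6 copies had reads at miR171 pairs and 0 of 8 other genes did. The pairs are not alike. ZS02g0226200, TGD2, ZS08g0411400 and ZS11g0098200 reached such a score only with osa-miR171d-5p, which is listed with no SCL6 copy. Tubgcp5 and ZS07g0340000 each scored 0 with small RNAs that carry the name of 1 precursor. AKRP scored 0 with osa-miR171b and also with osa-miR171e-5p. Why these genes pair so closely was not tested. Of all genes of the table with a best score of 2 or less against any small RNA, 11.4% had a read at any listed pair. That is a wider measure than reads at miR171 pairs, so 0 of 8 cannot be set against it directly. With 8 genes the count singles out nothing. NSP2, a GRAS factor of nodulation signalling in legumes, scored 0.5 with osa-miR171h_L-1R+1, lower than any pair of miR171 with SCL6, and had no read in either library. That small RNA is printed because it starts a further base along from the second group and carries another seed.
osa-miR171h_L-1R+1: tGAGCCGAaccaatatcactc
It was listed with no SCL6 copy. A count of 0 allows up to 3 reads, or 88.1 TPB in the light library and 194.5 in the dark library, below 4 of 4 SCL6 copies in the light library and 3 of 4 in the dark library, where ZS02g0545600 stood at the limit itself. Whether NSP2 was transcribed in these mesocotyls was not analysed here.

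**Figure D5:**
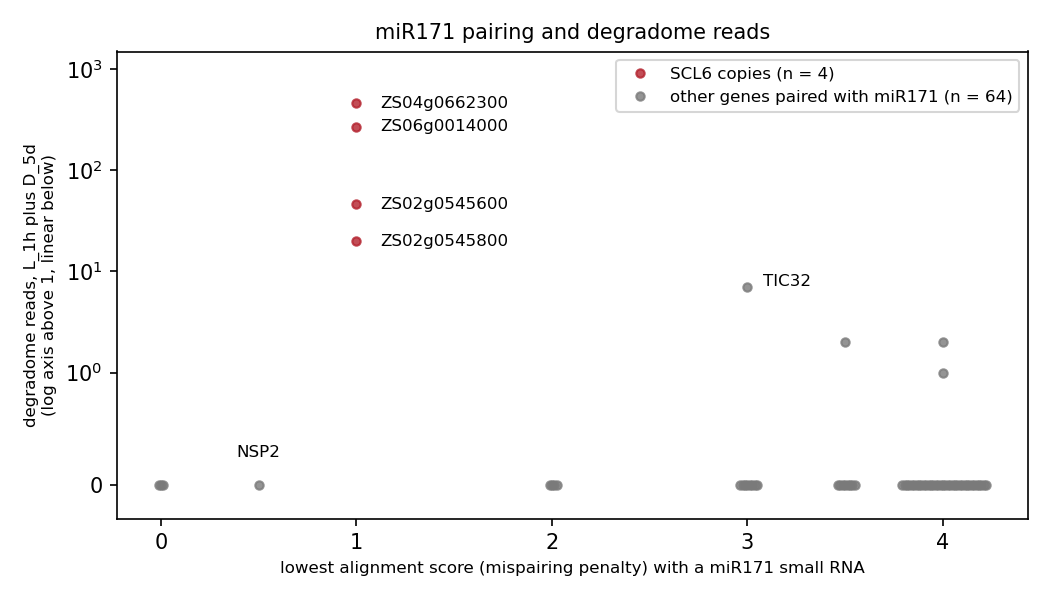
Lowest alignment score with any miR171 small RNA (x axis) against degradome reads at miR171 pairs (y axis, log above 1) for the 68 genes with a miR171 pair. Reads are summed over the light and the dark library, and overlapping points are spread sideways. The 4 SCL6 copies stand at a score of 1 with 20 to 462 reads, and no other gene with a score of 2 or less has such a read. Several of those other genes reach such a score only with osa-miR171d-5p, which is listed with no SCL6 copy.

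The table holds 12 GRAS genes beside the 4 copies by symbol or description. Of these, 2 (16.7%) had reads, against 8.52% of all genes, both at pairs with small RNAs other than miR171. The SCL28 gene ZS03g0278100 had 2 reads in the light library and 0 in the dark library, paired with a variant of ath-miR8175 at a score of 4. CIGR2, named for a gibberellin-responsive GRAS gene induced by chitin in rice, had 1 read in the light library and 2 in the dark library. MOC1, the GRAS regulator of tillering in rice, SHR2, SCL7, SCL32, NSP2, both SCL9 genes, the other SCL28 gene (ZS04g0518300), SCL6 ZS03g0012600 and the unnamed ZS05g0391300 had none. The other small RNAs listed with an SCL6 gene made 6 pairs, and 0 of 6 had a read.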

How the data were processed

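Per the labels' protocols, total RNA of mesocotyls was sequenced on an Illumina HiSeq as 2 degradome libraries. The names of the aligner, target finder, genome build and annotation were not given in the sources used here. Raw read counts at cut positions, normalized reads (a signal, raw reads divided by the number of matching places) and TPB (a signal) are used as the authors deposited them. The library total is the inverse of the deposited TPB of 1 read, with TPB taken as reads per 1000000000. The deposited table also gives p-values, a category, an alignment score and the authors' log2 fold change, which is dark over light and was not used. Columns headed D_1h were read as the dark library, since their values times 1 constant are the TPB headed D_5d. A further 20 value columns in other sheets were not used, and 1 line of the table was empty.

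Pairs were collapsed to positions. TPB was summed over transcript versions, which share their reads, and raw reads were counted once. Ratios are light over dark TPB with exact Clopper-Pearson intervals of the raw reads, tested on simulated data in which reads were independent. No test between conditions was run. Named genes are every SCL6 copy, every gene with miR171 reads, and GRAS genes by symbol or description. The members and lists were chosen with earlier results of these data known. Alternatives changed the scaling, call limit, positions, scores, categories and versions. Tools were Python 3.11.15, numpy 2.4.6, scipy 1.17.1, pandas 2.3.3 and matplotlib 3.10.9.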

Additional observations from a re-analysis of the deposited data

How the results depend on the processing

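No paired analysis was possible because each condition has 1 library. Among the 8 alternatives tried, the side of 1 on which each copy lay did not change with other scalings or with the most read position alone. The call limit, raw reads and a single transcript version cannot move a copy's ratio here. Close scores and categories 0 to 2 barely moved it, so these settings do not test the side. With the sum over shared sites as scaling, ZS04g0662300 stood at 1.29 and ZS06g0014000 at 0.385, the 4 copies together at 0.804, 2 copies were called lower, and 1 position was called higher and 2 lower. With the median ratio over shared sites, 0 copies and 0 positions were called lower and 3 positions higher, the downstream cut of ZS04g0662300 joining at 2.24. With 1.5-fold as the limit, 2 copies were called higher and 2 lower, and 3 positions higher and 2 lower. With the most read position of each copy alone, 0 copies were called lower, since ZS02g0545800 has 6 reads there in either library, and ZS04g0662300 held 70.0% of light reads. Raw reads, close scores, categories 0 to 2 and a single transcript version left the calls as they were. The median site stood at -0.18 and the sum at 0.44 on the log2 scale. Depth limits ZS02g0545600 in the dark library (3 reads) and ZS02g0545800 in both.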

Other observations

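Of the genes outside the GRAS family 3 paired with miR171 small RNAs at a score of 0, and none had a read at a miR171 pair. The ZS03g0040700 gene (AKRP, an ankyrin repeat protein gene by its description) paired so with osa-miR171b and with osa-miR171e-5p. Tubgcp5 paired so with osa-miR171h_L-1R+1 and with osa-MIR171h-p5, on 5 transcript versions. ZS07g0340000, without a symbol, paired so with osa-MIR171g-p3 and osa-MIR171g-p5, on 2 versions. For Tubgcp5 and ZS07g0340000 both small RNAs carry the name of 1 precursor.

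The spacing of the most read positions was also taken over all genes whose second position had at least 5 reads, a description added after the data were seen. Of the 45 such genes, the 4 SCL6 copies and 1 other had their top positions 3 bases apart, while 23 others had them 1 base apart. In the SCL6 copies the second position had 31.5% to 66.7% of the reads of the first. In the 23 genes with positions 1 base apart it had 0.886% to 100%, with a median of 31.1%. The listed small RNAs set which spacings can appear.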
